A study of Mus musculus with 16 samples.

Results

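Alveolar type II cells, taken as primary cells from the lungs of C57BL/6 mice, were compared after 24 h in 85% O2 (hyperoxia) and after 24 h in 21% O2 (normoxia). The comparison took the 8 arrays of 16 whose titles name 24 h, 4 of normoxia and 4 of hyperoxia, and no measured value entered that choice. The other 8 arrays hold the same oxygen levels at 6 h, with 4 in each group. Total RNA was labelled with Cy3 and read on one-colour Agilent arrays. Strain, organ and cell type are the same in all groups, and the labels name no allele and no agent besides oxygen. They do not say whether the arrays of a group came from separate animals or cultures, so p-values measure the spread between these arrays, which may be technical. Both 24 h groups lay on the same slide and were scanned on the same day. Normoxia arrays filled the first row of that slide and hyperoxia arrays the second, so oxygen and slide row cannot be told apart.

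Type II cells make and recycle surfactant, the lipid and protein film that keeps alveoli open, and they give rise to the flat type I cells across which gas is exchanged. Excess oxygen raises the formation of reactive oxygen species, which damage DNA, lipids and proteins. Damaged DNA stabilises the transcription factor p53, whose targets halt the cell cycle, promote repair or start cell death, while oxidised KEAP1 releases NRF2, which drives genes of glutathione, thioredoxin and detoxification. When p53 induces the CDK inhibitor p21, pocket proteins bind E2F factors and the DREAM complex, and genes of DNA replication and mitosis are switched off.

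Of 25400 genes tested, 3942 were higher in hyperoxia at 24 h and 3251 were lower, which is 15.5% and 12.8% of all genes tested (limma, Benjamini-Hochberg adjusted p under 0.05). Counts of list members given below are to be read beside these shares. Changes of at least 2-fold made up 2.63% of genes upward (669 genes) and 2.04% downward (518 genes), and the median log2 fold change over all genes was 0.00502. In 33.2% of genes the 4 hyperoxia arrays all lay on one side of the 4 normoxia arrays. A level here is the log2 signal less the 75th percentile of its array, so a difference of 1 is a 2-fold change and levels of different genes cannot be ranked. Errors of group differences are SE, and n = 4 arrays per group throughout. "Rose" and "fell" mean higher and lower in hyperoxia than in normoxia of the same time. Between 53.6% and 61.3% of probes were well above background on the normoxia arrays and between 60.0% and 62.9% on the hyperoxia arrays. Arrays of the same group correlated at 0.9913 to 0.9955.

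**Figure D1:**
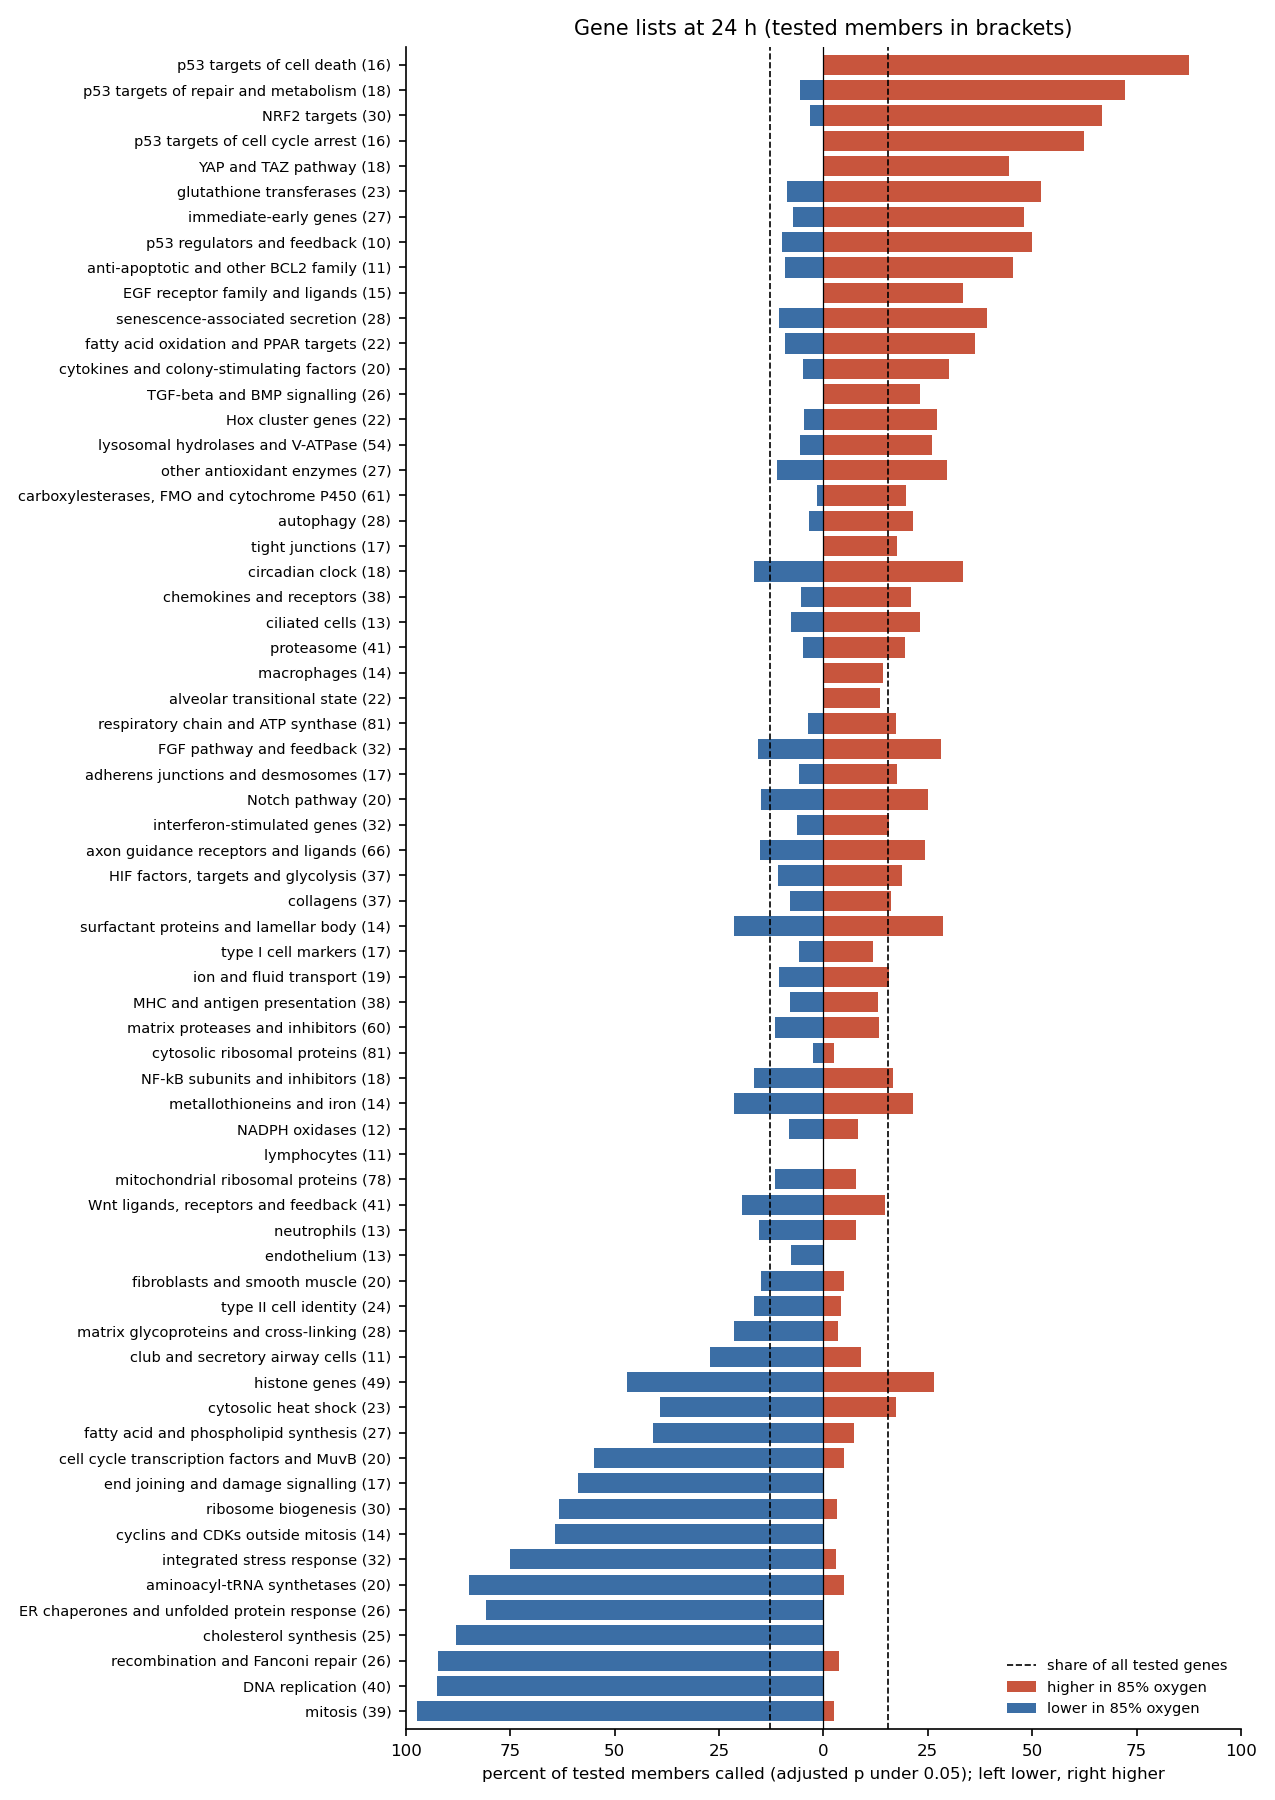
Percent of the tested members of each gene list that rose (right, red) or fell (left, blue) at 24 h, with the number tested in brackets. Dashed lines mark 15.5% and 12.8%, the shares among all 25400 genes, and lists with fewer than 10 tested members are left out. Mitosis had 38 of 39 members lower and p53 targets of cell death 14 of 16 higher.

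The RNA carried the markers of type II cells together with those of other lung cells. Of 14 tested genes of surfactant and the lamellar body, the summed signal was 78.8 to 96.8 times the 75th percentile on normoxia arrays and 88.1 to 123 times on hyperoxia arrays. Type II identity genes summed to 503 to 611 in normoxia and to 527 to 663 in hyperoxia over 24 genes. Type I markers summed to 358 to 416 in normoxia and to 322 to 432 in hyperoxia over 17 genes. A sum is led by its brightest members, such as Krt8 in the type II list, and does not give shares of cells. Fibroblast and smooth muscle markers summed to 2027 to 2294 in normoxia and to 1893 to 2007 in hyperoxia over 20 genes, so that these groups did not overlap. Macrophage markers summed to 58.8 to 74.9 and 72.4 to 80.4, and endothelial markers to 22.0 to 27.3 and 24.6 to 27.8. Lymphocyte markers stayed at 15.6 to 16.9 and 15.1 to 17.5. Some markers were not measured well enough to be tested. These were Slc34a2 and Pon1 of the surfactant list, Rtkn2 of the type I list and 5 macrophage markers, such as C1qa and Cx3cr1. They also held 4 endothelial markers, such as Cdh5 and Tie1, and 6 lymphocyte markers, such as Cd3d and Cd2. A lower signal can come from fewer cells of a type or from less RNA per cell, and the arrays cannot tell these apart. Of the fibroblast list, Des, which encodes the muscle filament desmin, read 3.09, 3.56, 3.58 and 3.19 in normoxia against 1.68, 2.05, 1.87 and 1.35 in hyperoxia (difference -1.62 ± 0.23, adjusted p = 8.41e-05). In the fibroblast list 3 of 20 fell, near the 12.8% of all genes, and 1 rose, while with arrays paired by replicate number 5 fell and 5 rose. The contractile gene Cnn1 and the surface marker Thy1 also fell, and Tcf21, a transcription factor of lung mesenchyme, rose. The call of Thy1 was lost without hyperoxia replicate 2 or 3 or normoxia replicate 1 (adjusted p up to 0.0740). Col1a1, Col3a1 and Acta2 did not pass, with differences of -0.15, -0.04 and -0.09. The part that other cells had in the changes given here was not tested.

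The large rises measured in both groups held detoxification genes and single genes of other families. Alox5 encodes 5-lipoxygenase, the first enzyme of leukotriene synthesis. It read -5.09, -4.74, -5.08 and -4.53 in normoxia against -1.77, -2.09, -2.14 and -1.56 in hyperoxia, 7.81-fold higher (2.96 ± 0.23, adjusted p = 2.63e-07), though 1 normoxia array was not well above background. Lce1g and Lce1i, which encode late cornified envelope proteins of skin, rose 7.31-fold and 6.35-fold, with 1 normoxia array of Lce1g not well above background. Their sequences resemble those of other Lce1 genes, so the probes may not separate them. Nkx2-9, a homeobox factor related to the lung regulator Nkx2-1, rose 6.44-fold (2.69 ± 0.22), whereas Nkx2-1 itself read -1.59, -0.98, -1.56 and -1.29 against -1.75, -1.23, -1.35 and -1.44 and did not pass (adjusted p = 0.759). Insyn2a, Mab21l3, Prl2c5, Hoatz and 1700007K13Rik completed, with Alox5, Lce1g, Lce1i and Nkx2-9, the 15 largest rises measured in both groups, beside Ces2e, Gsta3, Robo3, Nqo1, Gsta4 and Inka2. For Robo3 the brightest probe rose by 3.47 and the other tested probe by 0.37 on the log2 scale, so the size depends on the probe, and likewise for Insyn2a (2.89 and 0.60).

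Some genes were measured in 1 group only. Of all 25400 genes tested, 104 called genes were well above background on all 4 hyperoxia arrays and on none of the normoxia arrays, and 4 genes were so in the other direction. When 3 of 4 arrays sufficed on the bright side, the counts were 152 and 27. Probes well above background made up 53.6% to 61.3% on normoxia arrays and 60.0% to 62.9% on hyperoxia arrays. The part of that difference in these counts was not tested. A bound of at least 2-fold held for 30 of the 104. Svop, which encodes a synaptic vesicle protein, was at least 10.2-fold higher, from a mean of -6.31 to -2.07. Rimbp3, Fzd10, Nkx2-4 and Anks1b were at least 4.25-fold, 4.18-fold, 3.26-fold and 3.2-fold higher. Among genes with a RefSeq symbol the opposite pattern was found for Ncapg, which encodes a condensin subunit that compacts mitotic chromosomes, at least 4.84-fold lower, and for Cdca7l, at least 2.37-fold lower.

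Genes under p53 control rose together while the p53 gene itself did not pass the test. Trp53 read -0.19, 0.08, 0.37 and -0.19 in normoxia and 0.05, 0.20, -0.03 and -0.16 in hyperoxia, with overlapping groups and a difference of -0.00 ± 0.21 (adjusted p = 0.994). Mdm2, the ubiquitin ligase that degrades p53 and is induced by it, read 5.29, 5.34, 5.25 and 5.30 against 7.18, 7.27, 7.29 and 7.10. All 4 hyperoxia arrays stood above every normoxia array, and the difference of 1.91 ± 0.07 was 3.77-fold. Its relative Mdm4, which holds p53 inactive without degrading it, moved the other way, from -1.48, -1.58, -1.65 and -1.60 to -2.20, -2.30, -2.21 and -2.18 (-0.64 ± 0.09, adjusted p = 9e-05; another probe -0.26). Of 10 p53 regulators tested, 5 rose and Mdm4 alone fell. The phosphatase Ppm1d, which ends the response, rose by 0.61.

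Cell cycle arrest was the first branch of p53 targets, with 10 of 16 higher, none lower and a median of 0.71. The CDK inhibitor gene Cdkn1a, which encodes p21, read 3.94, 4.12, 3.82 and 4.10 against 5.83, 6.04, 5.74 and 5.72 (1.84 ± 0.14). Btg2, an antiproliferative gene, read 2.72, 2.71, 2.68 and 2.22 against 4.00, 4.21, 4.07 and 4.02 (1.49 ± 0.11). Gtse1, a p53-binding protein made in G2 phase, read 0.47, 0.36, 0.45 and 0.58 against 1.91, 2.07, 1.91 and 1.83 (1.46 ± 0.10). Sfn and Plk3 did not pass here (adjusted p = 0.0763 and 0.0924) and fell in the fit that pairs arrays by replicate number, where their adjusted p-values were 0.00500 and 0.0105.

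Cell death genes had the highest share, with 14 of 16 higher and a median of 1.22. Pidd1, a scaffold that activates caspase-2, read 0.20, 0.11, -0.04 and 0.27 in normoxia and 2.55, 2.79, 2.57 and 2.61 in hyperoxia, 5.65-fold higher (2.50 ± 0.11, adjusted p = 1.19e-09). The death receptor gene Fas read -0.21, -0.02, -0.32 and -0.68 against 1.43, 1.89, 1.43 and 1.08 (1.76 ± 0.21). Bax, whose protein opens the outer mitochondrial membrane, rose by 1.44 ± 0.20, with normoxia replicate 4 at 2.92 below the other normoxia arrays at 3.80 to 4.32. In each of these genes no hyperoxia array overlapped a normoxia array. Genes that oppose this step rose too, with smaller differences. Bcl2l1, which encodes BCL-XL, rose by 1.01 ± 0.12 and Mcl1 by 0.32 ± 0.07, while Bcl2 read -0.48, -0.49, -0.18 and -0.41 against -0.42, -0.36, -0.21 and -0.20 and did not pass. Of 11 other BCL2 family genes 5 rose, and 1 fell, a call lost without hyperoxia replicate 4 or normoxia replicate 2 or 4.

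Of 18 p53 targets of repair and metabolism 13 rose and 1, the glutaminase gene Gls2, fell. Polk, a DNA polymerase that copies past damaged bases, read -0.51, -0.10, -0.19 and -0.43 against 1.78, 2.00, 1.78 and 1.73, 4.38-fold higher. Ercc5, an endonuclease of nucleotide excision repair, read 0.19, 0.25, 0.18 and 0.19 against 1.73, 1.81, 1.71 and 1.62, a difference of 1.51 with an SE of 0.05. Dcxr, a carbonyl reductase, rose 4.14-fold and the stress cytokine Gdf15 2.87-fold. The groups of all 4 genes were apart.

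**Figure D2:**
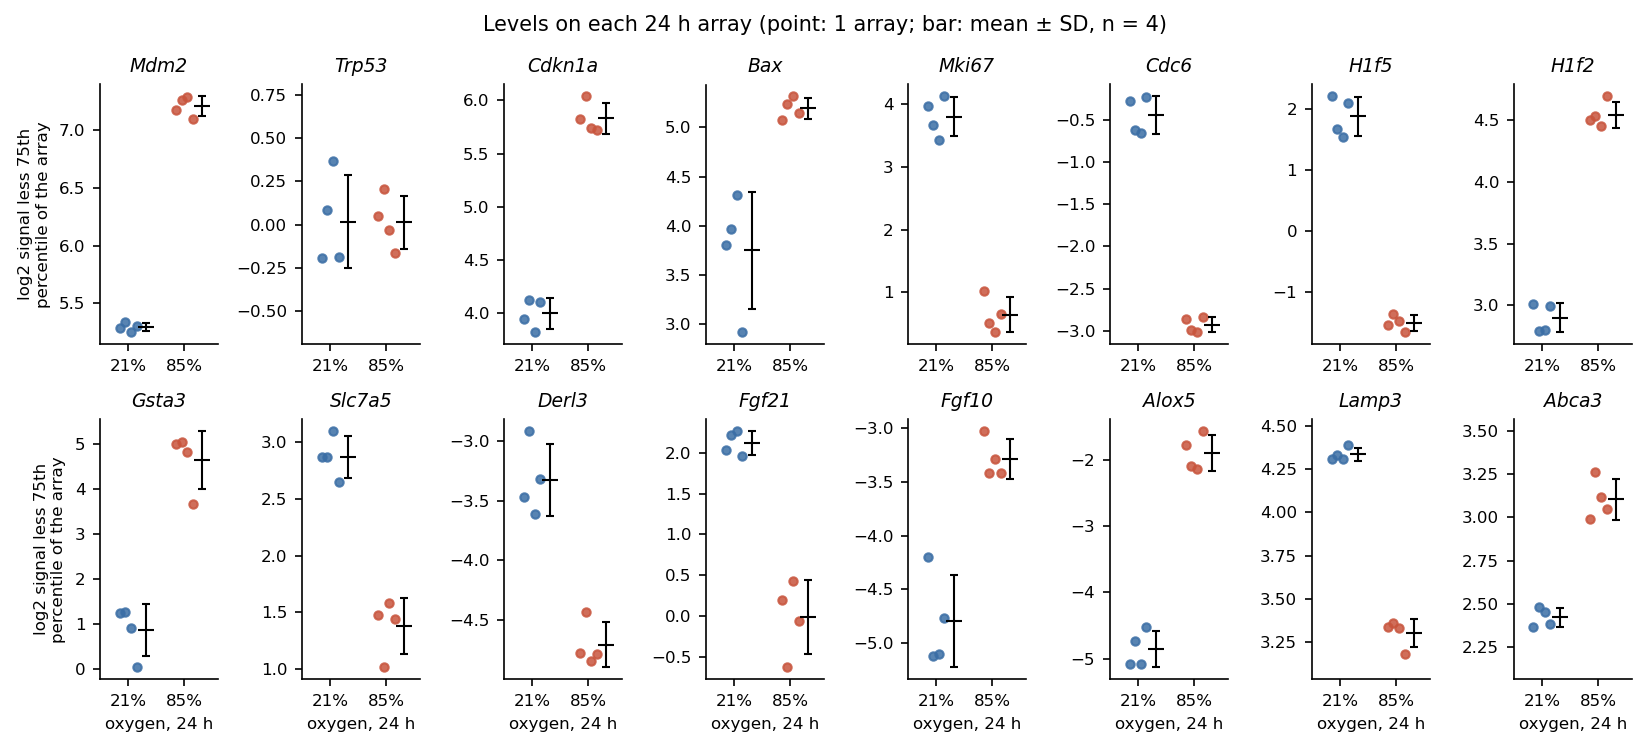
Level on each 24 h array for 16 genes, as log2 signal less the 75th percentile of the array, at 21% O2 (blue) and 85% O2 (red). Points are arrays and black bars are mean ± SD (n = 4). Only the groups of Trp53 overlap, and the axes differ between panels.

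Genes of mitosis fell almost without exception: 38 of 39 were lower, with a median of -2.26. Mki67, a protein that coats mitotic chromosomes, read 3.97, 3.66, 3.43 and 4.12 in normoxia and 1.02, 0.51, 0.37 and 0.66 in hyperoxia, 8.9-fold lower. Kif11, the kinesin that pushes spindle poles apart, read -0.30, -0.68, -1.21 and -0.28 against -3.46, -4.03, -4.29 and -4.27, 10.5-fold lower. Replicates 2 and 3 were the lower normoxia arrays for both genes, and no hyperoxia array reached them. The member that rose was Pttg1, for securin, which holds back the cohesin-cleaving enzyme, at 0.30 ± 0.08 (adjusted p = 0.0136). Cenpf was measured on 3 normoxia arrays and no hyperoxia array, at least 1.77-fold lower, with overlapping groups. Among 20 transcription factors of the cell cycle 11 fell and 1 rose. E2f8, a repressor of the E2F family, read 0.10, -0.07, -0.28 and 0.19 against -2.60, -2.96, -3.08 and -2.95 (-2.88 ± 0.13), and Mybl2 and Foxm1, which activate mitotic genes, fell by 2.14 and by 1.82. Rb1, the retinoblastoma pocket protein, was the one that rose, by 0.82 ± 0.10. Of 14 cyclins and CDKs outside mitosis 9 fell, Ccne2 among them, which was measured on 1 hyperoxia array and was at least 3.80-fold lower. Ccnd1 read 3.30, 3.14, 3.22 and 3.59 against 3.57, 3.39, 3.37 and 3.54 and did not pass. With arrays paired by replicate number, the CDK inhibitor genes Cdkn2a and Cdkn1c rose as well (adjusted p = 0.00429 and 0.000267).

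The promoters of these genes carry letters that are known from cell cycle control. The CHR element is bound by DREAM and related complexes (searched as TTTGAA or TTCGAA), the CCAAT box by NF-Y, and E2F sites by E2F factors (searched as TTTGGCGC, TTTCCCGC or TTTGGCGG), all on both strands. RefSeq promoters of build GRCm38.p6 were matched for 33 of 39 mitosis genes and 33 of 40 replication genes, each from 250 bases before the start to 50 after it. A CHR was present in 26 of the 33 mitosis promoters (78.8%) against 19.4% of 27025 promoters in the table. CHR and CCAAT together were present in 23 (69.7%) against 7.70%. The E2F letters were present in 12 of the 33 replication promoters (36.4%) against 2.16%, and in 0 of the 33 mitosis promoters. For the genes that fell at least 2-fold, too few (65.1%) have a promoter in the table for such a share to be given. Stretches before the start of 4 fallen genes are printed to show where these letters lie. Capitals mark CHR and CCAAT in the first 3 and the E2F letters in the fourth, on either strand. The windows are chr7:135716447-135716592 (minus strand) for Mki67, chr19:37376272-37376381 (plus) for Kif11, chr7:48881597-48881733 (minus) for E2f8 and chr11:98907988-98908097 (plus) for Cdc6.
Mki67: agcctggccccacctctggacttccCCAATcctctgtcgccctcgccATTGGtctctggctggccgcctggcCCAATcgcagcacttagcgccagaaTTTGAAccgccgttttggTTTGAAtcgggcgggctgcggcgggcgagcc
Kif11: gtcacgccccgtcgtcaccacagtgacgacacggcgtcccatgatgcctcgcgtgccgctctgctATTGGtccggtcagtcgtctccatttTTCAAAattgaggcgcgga
E2f8: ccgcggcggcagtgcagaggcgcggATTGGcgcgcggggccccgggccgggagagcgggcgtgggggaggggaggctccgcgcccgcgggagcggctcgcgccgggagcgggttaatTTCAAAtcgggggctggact
Cdc6: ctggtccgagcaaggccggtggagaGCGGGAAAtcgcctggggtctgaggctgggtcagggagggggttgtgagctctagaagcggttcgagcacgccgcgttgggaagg
A match shows only that the letters are present in these windows.

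**Figure D3:**
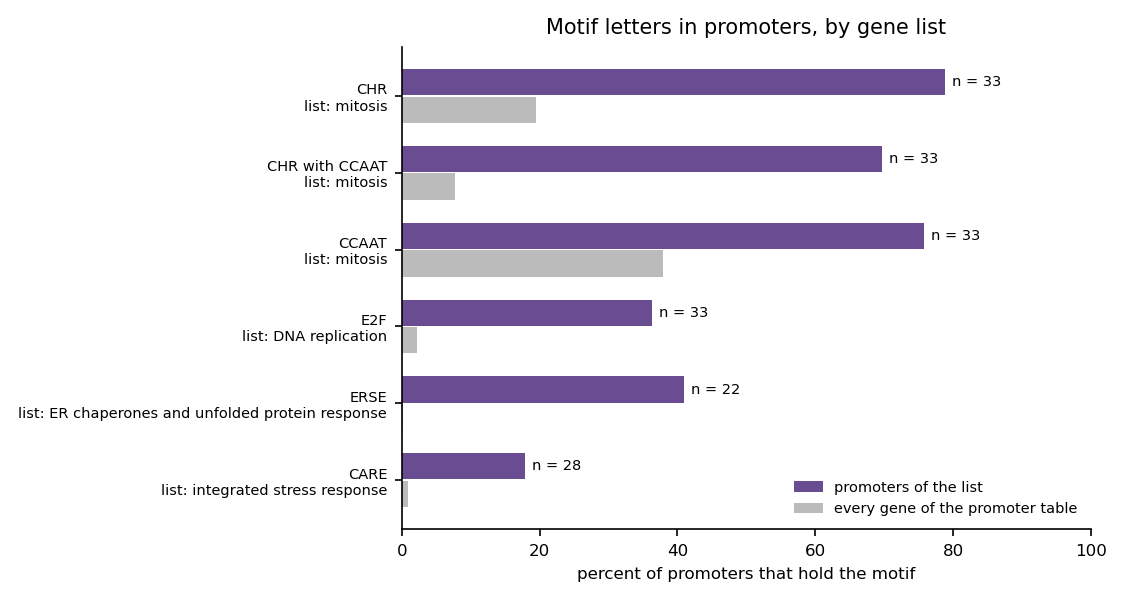
Percent of promoters that hold each set of letters on either strand, for the promoters of a gene list (purple, with their number) and for all 27025 genes of the promoter table (grey). CHR is present in 78.8% of mitosis promoters against 19.4%, and ERSE in 40.9% of ER promoters against 0.130%. No test was run.

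DNA replication genes fell in 37 of 40 cases, with a median of -1.28. Cdc6, which loads the replicative helicase onto origins, read -0.27, -0.61, -0.65 and -0.22 against -2.86, -2.99, -3.02 and -2.84 (-2.49 ± 0.11, adjusted p = 1.71e-09). Mcm10, a factor that starts the helicase, fell 5.28-fold, and Rrm2, the ribonucleotide reductase subunit of S phase, read 4.02, 3.82, 3.61 and 4.10 against 2.42, 2.23, 2.07 and 2.01. Slbp, Ung and Gins3 did not pass, at -0.18, -0.35 and 0.03, though Slbp did with the pairing by replicate number (adjusted p = 0.0385). Homologous recombination and Fanconi genes fell nearly as often, with 24 of 26 lower and a median of -1.21. Exo1, the exonuclease that resects broken ends, fell 6.61-fold from 1.46, 1.13, 1.07 and 1.46 to -1.24, -1.39, -1.53 and -1.62. Mus81, an endonuclease for branched DNA, was the member that rose (0.55 ± 0.07), and the checkpoint kinase gene Chek1 did not pass. Of 17 genes of end joining and damage signalling 10 fell and none rose, with a median of -0.38.

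Histone genes split in both directions, with 23 of 49 lower and 13 higher around a median of -0.13. H1f5, a linker histone gene expressed in S phase, read 2.21, 1.68, 1.54 and 2.10 against -1.52, -1.36, -1.46 and -1.65, 10.4-fold lower. Its paralog H1f2 read 3.01, 2.79, 2.80 and 2.99 against 4.50, 4.53, 4.45 and 4.69, 3.12-fold higher (1.64 ± 0.09). The groups of both genes were apart, in opposite directions. H1f3 was measured in hyperoxia only and was at least 1.85-fold higher. Among core histones H2bc18 fell by 2.25 ± 0.14 and H2ac11 by 1.69 ± 0.09, while H2bc4 rose by 0.72 ± 0.13. Clustered histone genes are near copies of each other, so a probe may read several of them.

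NRF2 targets rose in 20 of 30 cases, with a median of 0.72. Nqo1, a quinone reductase, read -0.63, -1.41, -1.16 and -1.11 against 2.80, 2.01, 2.43 and 1.76. Gclm and Gclc, the subunits of the enzyme that limits glutathione synthesis, rose by 1.15 ± 0.12 and 0.72 ± 0.10. Slc7a11, which imports the cystine that this enzyme needs, read -1.21, -1.15, -1.12 and -1.40 against -1.36, -2.51, -1.66 and -2.09 and was the member that fell (-0.69 ± 0.20, adjusted p = 0.018), with overlapping groups. That call was lost without hyperoxia replicate 2 or 4 (adjusted p up to 0.0518) and in a fit of the 8 arrays at 24 h alone. Hmox1, the haem-degrading oxygenase, read 1.06, 0.72, 4.52 and 1.32 against 2.45, 2.80, 5.40 and 3.83. Replicate 3 was high in both groups, and the difference of 1.72 passed only with arrays paired by replicate number (adjusted p = 0.185 and 0.0289).

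Glutathione transferases rose in 12 of 23 cases and fell in 2. Gsta3 read 1.24, 1.27, 0.92 and 0.05 against 5.01, 5.05, 4.82 and 3.68, with replicate 4 the lowest in each group, and Gsta4 and Gsta2 rose 9.04-fold and 3.34-fold. Gstm1 rose by 1.49 ± 0.11. These families are alike in sequence, and which Gsta gene a probe reads is uncertain. The promoter of Gsta3 (chr1:21240439-21240548, plus strand, RefSeq, GRCm38.p6) is printed, since Gsta3 was the glutathione transferase gene with the largest rise. Capitals mark the antioxidant response element letters TGACNNNGC, a site that NRF2 can bind. These letters are present in 12.5% of the 27025 promoters in the table, and a match shows only that they are present.
Gsta3: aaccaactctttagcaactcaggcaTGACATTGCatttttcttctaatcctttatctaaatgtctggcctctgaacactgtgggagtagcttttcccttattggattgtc
Too few NRF2 targets (76.7%) have a promoter in the table for a share to be given. Carboxylesterases, FMO and cytochrome P450 genes rose in 12 of 61 cases and fell in 1, against 15.5% and 12.8% of all genes. Ces2e, a carboxylesterase, read -4.53, -3.48, -4.54 and -5.01 against -0.83, 0.60, -0.65 and -1.33, with replicate 2 the highest in each group. Gpx2, an epithelial glutathione peroxidase, rose by 1.25 ± 0.20. In iron handling, the exporter ferroportin (Slc40a1) rose by 1.37 ± 0.28 and the transferrin receptor gene Tfrc by 0.91 ± 0.14 (lowest probe 0.45), while the siderophore-binding Lcn2 fell from 0.76, 1.00, 1.38 and 1.34 to -0.28, -0.34, 0.07 and -0.16.

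Genes of the integrated stress response, whose transcription factor is ATF4, were lower in 24 of 32 cases, with a median of -0.88. Slc7a5, an importer of large neutral amino acids, read 2.87, 2.87, 3.10 and 2.65 against 1.48, 1.02, 1.59 and 1.44 (-1.49 ± 0.13; another probe -0.64). Trib3 read 6.14, 6.03, 6.19 and 6.01 against 4.80, 3.48, 4.98 and 4.46, and Fgf21, a hormone gene induced by ATF4 that is not in this list, read 2.03, 2.22, 2.27 and 1.96 against 0.20, -0.63, 0.43 and -0.07, 4.4-fold lower. Hyperoxia replicate 2 was the lowest array for all 3 genes. Atf4 itself fell by 0.35 ± 0.09, Ddit3, which encodes CHOP, did not pass (adjusted p = 0.14, or 0.0257 with arrays paired by replicate number), and Sesn2 was the one that rose, by 0.31. Aminoacyl-tRNA synthetases, which charge tRNAs and are also ATF4 targets, were lower in 17 of 20 cases (median -0.54), and Qars rose by 0.20 ± 0.07. The call of Qars was lost without any one of 7 of the 8 arrays, all but normoxia replicate 2 (adjusted p up to 0.0819).

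Among 26 genes for ER chaperones and for the unfolded protein response, 21 fell and none rose. Derl3, a factor of ER-associated degradation, read -3.47, -2.92, -3.61 and -3.32 against -4.78, -4.43, -4.84 and -4.79. Hspa5, for the chaperone BiP, read 7.17, 7.19, 7.29 and 6.99 against 6.34, 6.23, 6.33 and 6.43, and Xbp1, whose spliced product drives this programme, fell by 0.70 ± 0.09. The ER stress element ERSE, which ATF6 and NF-Y bind, was searched as CCAAT, 9 free bases and CCACG. It was present in 9 of 22 promoters of this list (40.9%) against 0.130% of the table. The CARE letters TGATGCAA, where ATF4 can bind, were present in 5 of 28 promoters of the stress response list (17.9%) against 0.929%. Derl3 (chr10:75893217-75893326, plus strand) and Fgf21 (chr7:45615545-45615654, minus strand) are printed, the first as a member of the ER list and the second as a gene outside both lists that fell, with the ERSE (free bases included) and the CARE in capitals.
Derl3: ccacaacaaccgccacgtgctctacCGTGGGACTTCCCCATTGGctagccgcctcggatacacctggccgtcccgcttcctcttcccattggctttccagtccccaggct
Fgf21: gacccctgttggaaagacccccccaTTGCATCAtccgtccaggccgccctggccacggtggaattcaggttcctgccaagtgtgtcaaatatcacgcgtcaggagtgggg
Genes of cholesterol synthesis were lower as well. Of 25 cholesterol synthesis genes 22 fell, with a median of -0.57, such as the sterol sensor gene Insig1 (-1.10 ± 0.13). Of 27 genes of fatty acid and phospholipid synthesis 11 fell and 2 rose. The elongase gene Elovl6 fell by 0.90 ± 0.10 and Fasn, the fatty acid synthase, by 0.74 ± 0.08, and Lpin1, a phosphatidate phosphatase, rose by 0.93 ± 0.19. In fatty acid oxidation 8 of 22 rose (5 without hyperoxia replicate 2) and 2 fell, and Ppargc1a, a coactivator of mitochondrial genes, rose by 1.48 ± 0.26.

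The machinery of translation split by class. Ribosome biogenesis genes fell in 19 of 30 cases (median -0.34), among them Pes1, for a nucleolar assembly factor (3.08, 3.23, 3.08 and 3.15 against 2.09, 2.27, 1.95 and 2.12), though another probe of Pes1 gave -0.03. Cytosolic ribosomal protein genes were called in 2 cases each way of 81, below the background in both directions, although quantile normalisation called 5 higher and normexp with quantile 10. Rpl3, a core protein of the large subunit, was one of the 2 that fell, from 7.70, 7.55, 7.66 and 7.63 to 6.89, 6.86, 6.84 and 6.87. Respiratory chain and ATP synthase genes rose in 14 of 81 cases, near the 15.5% of all genes, and that count fell to 6 without hyperoxia replicate 1 or 2 or normoxia replicate 3. It was 9 with median scaling and 19 with quantile normalisation. Cox6a2, a subunit of cytochrome oxidase, had the largest fall among them (-1.32 ± 0.23). Lysosomal hydrolase and V-ATPase genes rose in 14 of 54 cases and fell in 3. Atp6v0e2, a subunit of the proton pump that acidifies lysosomes and lamellar bodies, read -0.85, -0.60, -0.89 and -0.40 against 0.83, 1.19, 1.06 and 0.98 (1.70 ± 0.15), and the cathepsin gene Ctsf rose by 1.21 ± 0.11.

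Surfactant genes did not move as one group, with 4 of 14 higher (28.6%) and 3 lower (21.4%), against 15.5% and 12.8% of all genes. Abca3, the lipid pump of the lamellar body, read 2.37, 2.48, 2.45 and 2.39 against 2.99, 3.26, 3.12 and 3.05 (0.68 ± 0.10). Lamp3, a membrane protein of the same organelle, read 4.31, 4.33, 4.31 and 4.39 against 3.33, 3.36, 3.33 and 3.18 (-1.03 ± 0.08), and Sftpb, for surfactant protein B, -0.46, -0.03, -0.32 and -0.17 against -1.86, -0.76, -1.04 and -1.13. No hyperoxia array of these genes overlapped normoxia, and the direction differed within one organelle. Sftpc, for surfactant protein C, read 0.90, 2.47, 0.62 and 1.54 against 1.20, 2.84, 1.60 and 1.71 and did not pass (adjusted p = 0.486). Sftpa1, measured on 2 normoxia arrays, missed the threshold (adjusted p = 0.0969) and rose (0.00478) when arrays were paired by replicate number. Of 24 type II identity genes 4 fell (16.7%) and 1 rose (4.17%), against 12.8% and 15.5% of all genes. With the pairing 8 fell and 4 rose. Etv5, a transcription factor that maintains type II cells, read 3.44, 3.34, 3.32 and 3.38 against 2.75, 2.37, 2.62 and 2.59.

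Type I markers depended on that pairing more than most lists. Of 17 tested, 2 rose and 1 fell, below the 15.5% and 12.8% of all genes. With the pairing 8 rose, and 4 rose without normoxia replicate 2. Ager, the receptor RAGE that marks type I cells, read -2.19, -0.15, -1.51 and -1.88 against -2.28, 0.17, -1.61 and -2.08, and Hopx -2.32, -1.13, -2.09 and -2.60 against -2.42, -0.89, -1.68 and -2.44. Replicate 2 was the highest array of both groups for Ager, Hopx, Sftpc and Col4a3, the last of which passed only with the pairing (adjusted p = 0.0734 and 2.46e-05), and replicate 1 the lowest of both groups for the macrophage receptor Marco. Spock2 and Gprc5a rose by 0.70 ± 0.16 and 0.72 ± 0.17. Of 22 genes of a transitional alveolar state 3 rose, below the 15.5% of all genes, and none fell, but 2 fell with the pairing or without normoxia replicate 1. Krt8, its usual marker, read 7.46, 7.80, 7.64 and 7.61 against 7.68, 7.98, 7.80 and 7.68 (adjusted p = 0.328). Tight junction genes rose in 3 of 17 cases, near the 15.5% of all genes, and in 7 with the pairing. In ion and fluid transport 3 of 19 rose and 2 fell, near the shares of all genes, with 5 risers in the paired fit and 1 without hyperoxia replicate 1, 3 or 4 or normoxia replicate 2 or 3. The water channel gene Aqp1 read -1.11, -1.11, -0.91 and -1.19 against -2.35, -2.58, -2.26 and -2.60 (-1.37 ± 0.12), and Atp1b1, a subunit of the sodium pump, rose by 0.57 ± 0.14. Col1a2 likewise passed only with the pairing (adjusted p = 0.0751 and 0.00611), at 8.94, 8.78, 9.01 and 8.87 against 8.59, 8.52, 8.68 and 8.58.

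**Figure D4:**
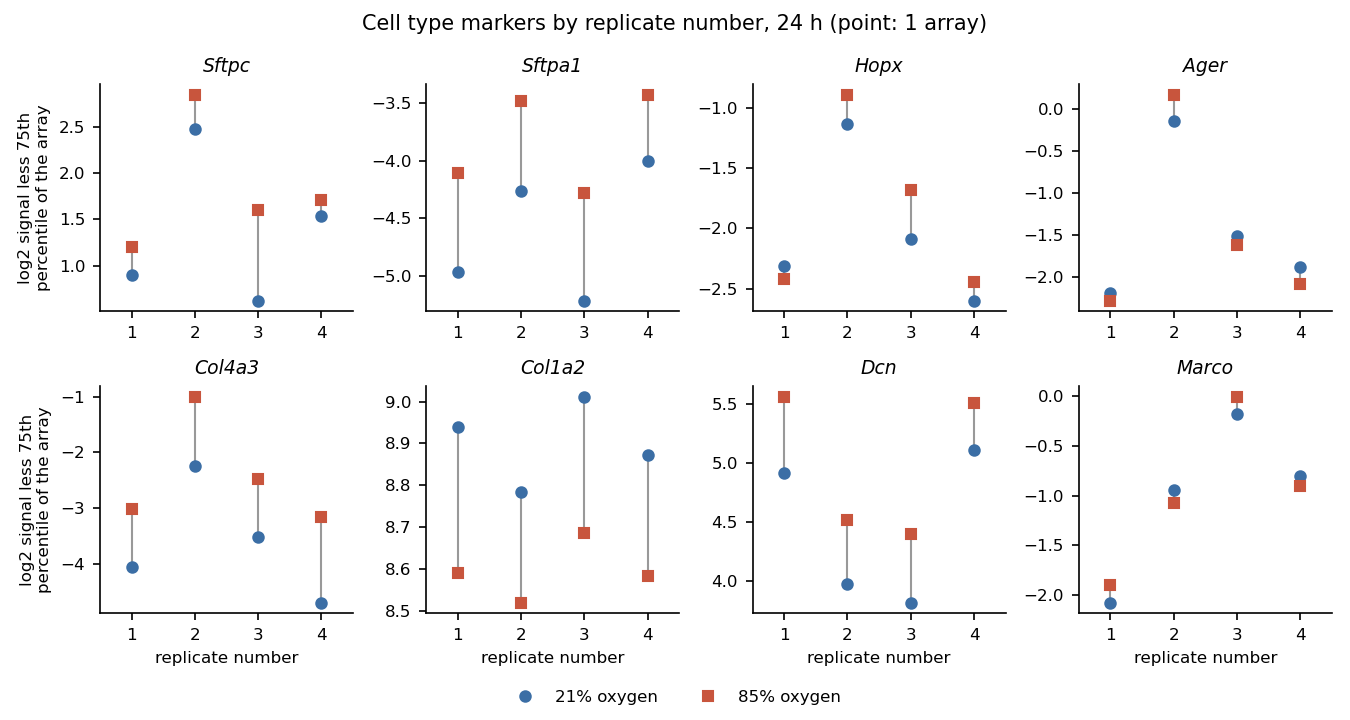
Levels of 8 markers on each 24 h array by replicate number, as log2 signal less the 75th percentile of the array. Circles are 21% O2, squares 85% O2, and lines join arrays with the same number. For Sftpc, Hopx, Ager and Col4a3 replicate 2 is highest in both groups, and Marco is lowest in replicate 1 of both.

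Signalling genes changed as single ligands and receptors. In the FGF pathway 9 of 32 rose (28.1%) and 5 fell (15.6%), the latter near the share of all genes. Fgf10, the ligand that drives lung epithelial growth and is made by mesenchyme, read -4.19, -5.12, -5.10 and -4.76 against -3.03, -3.42, -3.29 and -3.42, 2.84-fold higher (adjusted p = 0.000413). Fgfbp3, which releases FGFs from the matrix, read -0.78, -0.59, -0.98 and -1.30 against 0.79, 1.33, 0.89 and 0.43. Groups of both genes were apart, and the feedback inhibitors Spry1 and Spry2 rose by 0.49 and 0.44. Of 15 genes of the EGF receptor family and its ligands 5 rose (33.3%), and 1 fell only without normoxia replicate 1. Among the risers Btc rose by 1.20 ± 0.25, Ereg by 0.88 ± 0.23 and the receptor gene Egfr by 0.52 ± 0.11 (lowest probe 0.25). In the Notch pathway the receptor gene Notch3 rose 3.01-fold (1.59 ± 0.11) and the ligand gene Dll1 by 1.57 ± 0.17 (another probe 0.35), both with groups apart. Of 20 Notch genes 5 rose (25%) and 3 fell (15%), the latter near the share of all genes. Only 3 rose without normoxia replicate 1 or 3. Lfng was among those that fell (-0.76 ± 0.18), and the target Hes1 did not pass. Wnt genes rose in 6 of 41 cases and fell in 8, near the shares of all genes, and fell in 5 without hyperoxia replicate 3 or 4 or normoxia replicate 3. The axon guidance list had 16 of 66 higher (24.2%) and 10 lower (15.2%), the latter near the share of all genes. Among the risers the ephrin receptor gene Epha4 stood at 1.34 ± 0.24. Robo1 and Robo2 stood at 0.70 and 0.89 (Robo2 with 0.33 as its lowest probe). Without single arrays as few as 6 of that list fell, as with hyperoxia replicate 3 or 4 or normoxia replicate 1, 2 or 3 left out. Of 39 Hox genes with a probe 22 were tested, and of these 6 rose (27.3%) and 1 fell (4.55%). The risers include Hoxc13 and Hoxc9, measured at 24 h in hyperoxia only (at least 3.01-fold and 2.31-fold higher). Their calls rest on signals that were not measured in normoxia. YAP and TAZ pathway genes rose in 8 of 18 cases (5 without hyperoxia replicate 2 or normoxia replicate 1 or 3) with a median of 0.25 and fell in none, led by Ptpn14, which is also a p53 target (1.03 ± 0.08). The YAP targets Ccn1 and Ccn2 did not pass, at 0.21 and 0.07. In TGF-beta and BMP signalling 6 of 26 rose (23.1%) and none fell. That count was 2 without normoxia replicate 1, 3 without hyperoxia replicate 2 and 10 with quantile normalisation, and with the pairing 11 rose and 2 fell.

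Immune and matrix lists also changed to unlike degrees, beside 15.5% higher and 12.8% lower among all genes. Of 38 chemokine and receptor genes 8 rose (21.1%) and 2 fell (5.26%). Without normoxia replicate 3, 5 rose, and with the pairing 10 rose and 7 fell. Cytokine genes rose in 6 of 20 cases (30%) and in 11 with the pairing. Il11 read 5.61, 5.27, 5.85 and 5.57 against 6.68, 6.30, 6.76 and 6.57, and Tslp, an epithelial alarmin, rose by 1.30 ± 0.25. Il6 did not pass (adjusted p = 0.357). Of 32 interferon-stimulated genes 5 rose (15.6%) and 2 fell (6.25%), near and below the shares of all genes, with Ifit1 at 1.03 ± 0.29. In antigen presentation Tap1, the peptide transporter that p53 also induces, rose 3.97-fold from -3.20, -2.76, -2.60 and -2.86 to -0.98, -0.44, -1.05 and -0.99. Psmb8, an immunoproteasome subunit encoded near it, fell by 0.96 ± 0.12 with groups apart, and Psmb9 did not pass. Of 37 collagen genes 6 rose and 3 fell, close to or under the 15.5% and 12.8% of all genes, and 11 rose and 6 fell with the pairing, with Col18a1 at 1.13 ± 0.19 and Col8a2 at -0.97 ± 0.23 (another probe -0.33). Of 60 matrix proteases and inhibitors 8 rose and 7 fell, below the shares of all genes, 5 rose without hyperoxia replicate 1, 3 fell without hyperoxia replicate 3, and 4 fell without hyperoxia replicate 4 or normoxia replicate 3. The stromelysin gene Mmp3 rose by 1.37 ± 0.34. The epithelial matrilysin gene Mmp7, measured on 3 normoxia arrays and 1 hyperoxia array, was at least 1.90-fold lower. The list for senescence-associated secretion, which also holds nuclear genes, rose in 11 of 28 cases (39.3%) and fell in 3 (10.7%). Without normoxia replicate 3, 7 rose. Among those that fell were the nuclear genes Hmgb2 (-2.04 ± 0.10) and Lmnb1, for a lamin (-1.27 ± 0.20). Their losses are used as marks of senescent cells, but genes of mitosis and replication fell too, and senescence was not tested.

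Immediate-early genes rose in 13 of 27 cases, with a median of 0.40. Dusp1, a phosphatase of stress kinases, read 1.62, 1.40, 1.22 and 1.37 against 2.82, 2.80, 3.05 and 2.91 (1.50 ± 0.17), and Egr1 rose by 0.98 ± 0.13. Klf4 and Myc were the members that fell, and the call of Myc was lost without hyperoxia replicate 4 (adjusted p = 0.0510). Among cytosolic heat shock genes the inducible Hspa1a read -1.58, -1.54, -1.32 and -1.64 against -0.33, -0.12, -0.22 and -0.09, 2.51-fold higher. The co-chaperone gene Hsph1 fell by 0.49, and in all 9 of 23 fell and 4 rose. Clock genes rose in 6 of 18 cases. Dbp, an output gene of the clock, rose by 1.49 ± 0.14 and Nr1d1, which encodes REV-ERB alpha, by 1.41 ± 0.16, while Per2 did not pass (0.23). Of 37 HIF factors, targets and glycolysis genes 7 rose and 4 fell, near the 15.5% and 12.8% of all genes. Only 2 fell without hyperoxia replicate 2 or 3 or normoxia replicate 1 or 4. Adm, for the vasodilator peptide adrenomedullin, read -0.11, -1.03, -0.24 and -0.08 against 1.54, 1.16, 1.58 and 1.39, and the targets Vegfa and Ndrg1 did not pass (-0.17 and 0.01).

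The effect at 24 h differed from the effect at 6 h for 1683 genes above it and 1429 below it, which is 6.63% and 5.63% of all genes tested. Time goes with slide, so this difference of differences removes a slide effect only if both oxygen groups of a slide share it. Of these 3112 genes 3015 were called at 24 h, of which 1879 had the same sign and a larger size at 24 h and 1136 the opposite sign at 6 h. That sign was read from the fitted 6 h effect whether or not it was called. Of the 83 genes called at 6 h, 73 were called in the same direction at 24 h and 1 in the opposite direction, and 9 were not called. Mdm2 had risen by 1.05 at 6 h and by 1.91 at 24 h, a difference of 0.86 (adjusted p = 3.8e-05). Mki67 and Cdc6 stood at -0.28 and -0.02 at 6 h, against -3.15 and -2.49, and Slc7a5 at -0.10 against -1.49. For some p53 genes the difference between the times did not pass. Mdm4 stood at -0.69 at 6 h and -0.64 at 24 h (adjusted p of the difference = 0.85), and Gdf15 at 1.22 and 1.52 (0.37). Pdk1, a kinase that inhibits pyruvate dehydrogenase, rose by 0.65 at 6 h and stood at -0.22 at 24 h, where it passed only with the pairing (adjusted p = 0.0421). Ms4a20 stood at -4.39 at 6 h and at -1.12 at 24 h, where it did not pass and was measured on 1 normoxia array.

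**Figure D5:**
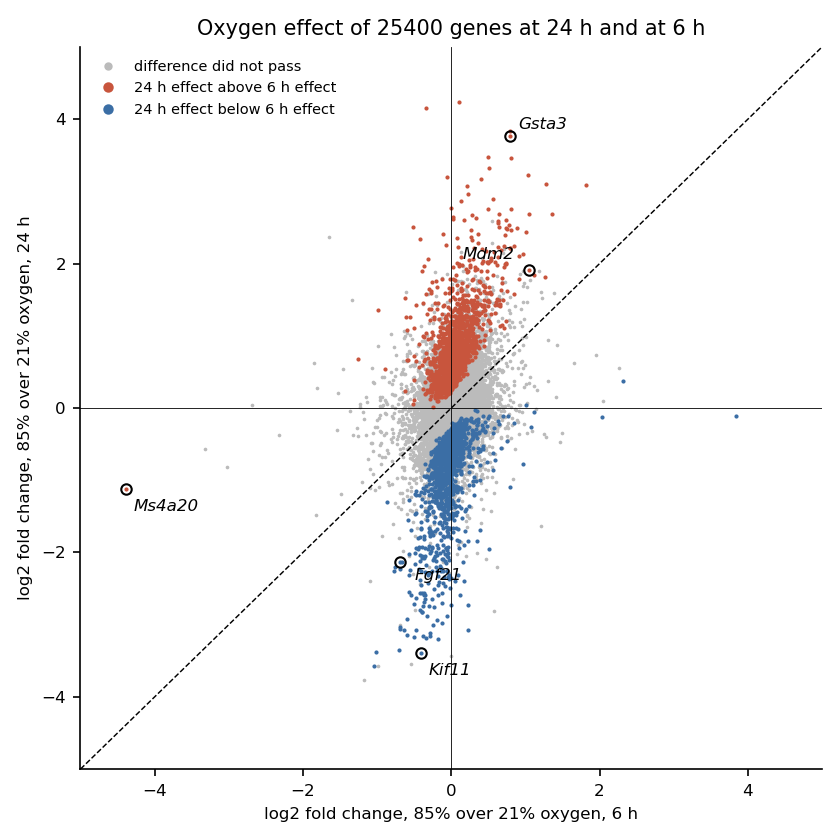
Log2 fold change of hyperoxia over normoxia at 24 h (vertical) against 6 h (horizontal) for 25400 genes. Red and blue points are the 1683 and 1429 genes whose 24 h effect lay above or below the 6 h effect, grey points did not pass, and the dashed line marks equal effects. Most coloured points spread along the vertical axis, and Mdm2 lies at 1.05 and 1.91.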

How the data were processed

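The 16 Agilent arrays were scanned and read with Agilent Feature Extraction 10.7.3.1 per the file headers, which gives each spot a background-corrected Cy3 intensity, as deposited. The authors' deposited value table holds log2 values of the same arrays for 43964 probes. Its scale was found by comparison with the scanner values (r of 0.997 to 1.00 per array), all columns have a median of 7.19, and which steps led to it is not given in the sources used here. Here log2 intensity less the 75th percentile of each array was used, spots of a probe were averaged, and control spots were left out. The brightest probe stands for a gene, and only genes that exceeded background clearly on at least 3 of a group's 4 arrays were tested. One limma model (limma 3.58.1, R 4.3.3) was fitted over all 16 arrays and 4 groups with Benjamini-Hochberg adjustment over 25400 genes, after it was tested on simulated data. The number of arrays limits the precision.

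Genes measured in 1 group only are given as "at least N-fold": the bright group's mean against, on each dim array, the higher of the lowest signal well above background and the probe's own. The members and gene lists were chosen with earlier results of these data known. Named genes with a RefSeq symbol are the 15 largest rises and falls without overlap, the 6 highest bounds each way, up to 3 called members of each list, defining markers, and the 3 largest differences between times each way. Some of these are left out, and the other genes named lie outside this rule and were chosen after their values were seen, such as Trp53, Mdm4, Bax, Fas, Hmox1, Slc7a5, Hspa5, Il11 and H1f2. Gene names are those of the array design, updated through RefSeq, and 17301 tested genes have a RefSeq symbol. Replicate numbers, which are also slide columns, pair the arrays: deviations from the group means correlated at 0.244 to 0.345 between arrays of the same number at 24 h. The alternatives were the 8 arrays alone, the replicate number as a block, 3 other scalings or backgrounds, the deposited table, 2 other filters, array weights, the mean of probes, and each array left out.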

Additional observations from a re-analysis of the deposited data

Results flagged for a closer look

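Single arrays stood apart from the other 3 of their group, beyond the Dixon limit for a gap over the range, in 21 of 352 groups of named genes. Chance alone does this in about 1 in 20 groups. Hyperoxia replicate 1 read -5.93 for Cenpf. Hyperoxia replicate 2 read -4.43 for Derl3, -0.44 for Tap1 and 3.65 for Egr1. Hyperoxia replicate 3 read 5.88 for Gins3. Hyperoxia replicate 4 read 3.68 for Gsta3, -2.42 for H2bc18, -4.23 for H1f3, 3.18 for Lamp3, 0.91 for Ptpn14 and 0.61 for Nr1d1. Normoxia replicate 1 read -3.91 for Nkx2-9. Normoxia replicate 2 read -1.03 for Adm and 3.03 for Hmgb2. Normoxia replicate 3 read -6.76 for Nkx2-4, -6.75 for Cenpf and 4.52 for Hmox1. Normoxia replicate 4 read -4.06 for Cdca7l, 2.22 for Btg2, 1.64 for Tfrc and 2.61 for Gclc.

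For the genes given in the following sentences the oxygen effect at 24 h differed from that at 6 h by limma's interaction term (adjusted p under 0.05), given here as the effect at 24 h less the effect at 6 h on the log2 scale. Among p53 targets the effect at 24 h exceeded that at 6 h by 0.86 for Mdm2, 0.72 for Cdkn1a, 0.85 for Btg2, 1.61 for Pidd1, 1.16 for Polk and 1.51 for Dcxr. Other genes of this kind or of cell death stood above by 1.15 for Bax, 1.39 for Fas, 0.90 for Ercc5, 0.77 for Bcl2l1, 1.27 for Inka2, 1.26 for Tap1 and 0.74 for Ptpn14. In the cell cycle and mitosis the difference was -2.99 for Kif11, -2.87 for Mki67, -2.83 for E2f8, -2.30 for Mybl2, -1.69 for Foxm1, -3.30 for Ccne2 and -2.53 for Ncapg. For replication, repair and nuclear genes it was -2.47 for Cdc6, -2.45 for Mcm10, -1.89 for Rrm2, -2.72 for Exo1, -1.87 for Cdca7l, -1.84 for Hmgb2 and -1.20 for Lmnb1. Of these, Ncapg and Cdca7l were measured on no hyperoxia array at 24 h and Ccne2 on 1, so their values are fitted on unmeasured signals, as is that of Mmp7, with 1. On the upper side stood Rb1 and Mus81, with 0.65 for Rb1 and 0.55 for Mus81. Histone genes differed by -2.37 for H1f5, -1.69 for H2bc18, -1.15 for H2ac11, 1.62 for H1f2 and 0.82 for H2bc4. Detoxification genes stood above by 3.05 for Ces2e, 2.97 for Gsta3, 2.77 for Gsta4, 1.23 for Gstm1, 2.82 for Nqo1 and 0.93 for Gclm. For iron genes the values were 1.68 for Slc40a1 and -1.32 for Lcn2. Genes of the stress response under ATF4, ER, lipids and translation lay below, at -1.39 for Slc7a5, -1.26 for Trib3, -1.44 for Fgf21, -1.24 for Derl3, -0.63 for Hspa5, -0.59 for Xbp1 and -1.19 for Insig1. Further ones were -0.84 for Elovl6, -0.84 for Fasn, -0.61 for Rpl3, -0.80 for Pes1, -0.79 for Psmb8, -1.34 for Cox6a2 and -0.86 for Pdk1. Surfactant, type II and transport genes differed by 0.56 for Abca3, -0.87 for Lamp3, -1.26 for Sftpb, -0.50 for Etv5 and -1.09 for Aqp1. Signalling genes differed by 1.40 for Fgf10, 1.48 for Fgfbp3, 1.10 for Notch3, 1.42 for Dll1, 0.73 for Robo2, 2.66 for Robo3 and 0.95 for Il11. Matrix, lysosomal and muscle genes gave 1.07 for Col18a1, -0.91 for Mmp7, 1.63 for Atp6v0e2, 1.08 for Ctsf and -1.50 for Des. Early, heat shock, clock and mitochondrial regulator genes gave 1.29 for Dusp1, 0.97 for Egr1, 1.31 for Hspa1a, 1.50 for Dbp, 0.76 for Nr1d1 and 1.33 for Ppargc1a. Large rises of other families gave 2.74 for Alox5, 1.54 for Ltb4r1, 2.33 for Insyn2a, 2.74 for Lce1g, 2.39 for Lce1i and 1.77 for Crct1. To these came 2.26 for 1700007K13Rik, 1.33 for Mab21l3, 2.06 for Prl2c5, 2.30 for Hoatz and 1.64 for Nkx2-9. Alpha-arrestin genes gave 1.52 for Txnip, 1.81 for Arrdc4 and 0.85 for Arrdc3. Genes measured in hyperoxia only at 24 h gave fitted values of 4.14 for Svop, 3.25 for Rimbp3, 2.20 for Fzd10, 1.53 for Nkx2-4, 1.60 for Anks1b, 2.99 for Hoxc13 and 3.03 for Hoxc9. Ms4a20, which was low in hyperoxia at 6 h, gave 3.27.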

How the results depend on the processing

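Of the named genes that passed at 24 h, 136 of 140 kept their direction and call under each of the 18 other settings that tested them. None reversed, and those that lost a call are given with their values in the report. The stricter filter tested only genes well above background on all 4 arrays of both 24 h groups. Genes measured in 1 group only, such as Svop and Ncapg, were therefore not tested under it. With the replicate number as a block, which pairs the arrays, 4711 genes were higher and 3758 lower, 6901 of the 7193 calls remained, and named genes that gained a call are given beside their results. The block took the call from no named gene and moved a count of 24 of 69 lists by over 1.5 times. Leaving out 1 array gave 3304 to 3592 genes higher, 2725 to 3065 lower, 1325 to 1519 with a difference between times above 0 and 1170 to 1348 below. Array weights raised those differences to 3135 above and 2600 below, and the cause was not tested. Of genes measured in 1 group only, 152 were higher and 27 lower when 3 of 4 arrays sufficed on the bright side, against 104 and 4. The mean of probes turned 5 called genes. Median scaling and quantile normalisation moved the median log2 fold change of all genes to 0.0149 and 0.0121. Promoter shares of all called genes are not given, since only 63.6% of the genes that fell have a promoter in the table. Between 53.6% and 62.9% of probes rose well above background, which limits dim genes to bounds.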

Other observations

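Genes of the cornified envelope, the protein shell of skin cells, were looked at after the rises of Lce1g and Lce1i were seen. Of 22 tested, 12 rose and 1 fell, with a median of 0.71, against 15.5% and 12.8% of all genes. Crct1 read -2.07, -2.60, -2.57 and -1.20 in normoxia against -0.06, -0.81, -0.17 and 0.82 in hyperoxia (2.06 ± 0.37), and Sprr2g, measured on 3 normoxia arrays, rose by 1.89 ± 0.40. Their groups did not overlap, and the Lce1 genes among the 22 resemble each other in sequence.

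Of 8 tested genes of the leukotriene pathway 2 rose and none fell. Ltb4r1, a receptor for leukotriene B4, read -3.48, -3.35, -3.33 and -3.20 against -1.66, -0.75, -1.15 and -1.71, 4.06-fold higher. Alox5ap, which presents the substrate to 5-lipoxygenase, did not pass (-0.20 ± 0.19, adjusted p = 0.484). Of 6 tested alpha-arrestin genes, whose products control membrane transporters, 4 rose. Txnip, an inhibitor of thioredoxin and of glucose uptake, read -1.15, -1.21, -1.32 and -1.24 against 0.72, 1.50, 0.24 and 1.36 (2.18 ± 0.21), and its relative Arrdc4 rose by 2.05 ± 0.16. Arrdc3 rose by 0.83 ± 0.14. These lists were chosen after the data were seen, so their counts are no independent evidence of a direction.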
